A study of Mus musculus with 4 samples.

Results

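Wnt ligands, their Frizzled and LRP receptors and the secreted Sfrp and Dkk antagonists were followed here through 4 mouse bone marrow culture libraries. The genes were taken by symbol, as every row whose name begins with Wnt, Fzd, Sfrp or Dkk and a number, with Lrp5 and Lrp6 added. This gave 39 of the 22700 rows in each table: 19 Wnt ligands, 10 Frizzleds, 2 LRP co-receptors, 4 Sfrp genes and 4 Dkk genes. Of these, 19 reached 20 normalised reads in at least 1 library and 20 did not, and fold changes are given for the 19 only. The nearest genes inside that limit were Sfrp5 (highest value 26.9), Sfrp2 (41.8), Wnt4 (45.3) and Sfrp1 (48.8), and the nearest outside were Wnt9a (19.2), Wnt5b (18.3), Fzd6 (18.1) and Wnt11 (13.9).

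Wnt proteins are secreted lipid-modified signals that bind Frizzled receptors on the cell surface. With LRP5 or LRP6 as co-receptor this stabilises beta-catenin, which enters the nucleus and acts with TCF/LEF factors, while other branches use Frizzleds with co-receptors such as Ror and Ryk and act through cell polarity and calcium. Sfrp proteins carry a Frizzled-like domain that can bind Wnts, and several Dkk proteins block LRP5 and LRP6. In bone marrow, stromal cells and cells of the osteoblast lineage are known sources of Wnts and of their antagonists, and macrophages carry Frizzled receptors.

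The marrow came from male mice aged 12 weeks that were either db/+ (BKS.Cg-m+/+leprdb+/J, the control littermates, with 1 mutant leptin receptor allele) or db/db (BKS.Cg-m+/+leprdb/J, labelled type 2 diabetic, with 2 mutant alleles). The cells were grown for 7 to 8 days with M-CSF, a growth factor that yields macrophages, at 10 ng/ml, or with GM-CSF, which yields a mixture of macrophage-like and dendritic-like cells, at 20 ng/ml. Each of the 4 combinations of culture and genotype was 1 library. The mutation is inherited and so present in every cell, it alters splicing so that the read total of the gene does not check the label, and no label says whether a library held marrow of 1 animal or of several. RNA depleted of ribosomal RNA was sequenced as read pairs.

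Recovered totals were 25603389 to 28622706 reads per library. In both cultures the macrophage markers were abundant: their 10 genes summed to 564993 and 535841 in M-CSF db/+ and db/db and to 753754 and 752841 in GM-CSF db/+ and db/db, with none at 0. Lyz2 alone was 626680 and 621787 of the GM-CSF sums. Of the 10 genes, 3 were higher in GM-CSF and 7 lower in each genotype. At least 2-fold lower were 5 in each, against 15.7% and 15.8% of all genes. Median log2 folds of the 10 were -0.87 in db/+ and -0.65 in db/db. Dendritic markers (8 genes) summed to 2029.7 and 2043.2 in M-CSF and to 62971.9 and 62806 in GM-CSF, where Flt3 was at 0. Itgax alone was 56041.7 and 56258.8 of these GM-CSF sums. Markers of stromal cells (16 genes) summed to 32231.7 in M-CSF db/+ and 89816.2 in M-CSF db/db, a ratio of 2.79, but to 987.2 and 1038.2 in GM-CSF. No stromal marker was at 0 in M-CSF, whereas Lum and Twist2 were at 0 in GM-CSF db/+, and Col3a1, Dcn, Lum and Twist2 in GM-CSF db/db. Osteoblast markers (7 genes) summed to 901.6, 2506, 296.2 and 274.4 in the same order of libraries, and B and plasma cell markers (5 genes) to 80.7, 247.5, 16.9 and 13. In bulk RNA, fewer cells of a type and less RNA per cell cannot be told apart.

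The 2 GM-CSF libraries differed by little more than counting error. Over 4355 genes with 200 to 1000 reads, their mean squared difference was 1.07 times that of counting alone, against 6.98 times over 4471 genes in the M-CSF pair. Whether the GM-CSF libraries came from separate cultures was not tested. With 1 library per group there was no replicate spread within a group. Fold changes between 2 libraries are therefore descriptions, on the log2(value + 5) scale, and a gene was counted as higher or lower at 2-fold or more. Ratios are of the normalised reads with exact 95% intervals on read pairs, which cover counting error only.

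Among the ligands, 5 of 19 reached 20 normalised reads. Values here and in the following are in the order M-CSF db/+, M-CSF db/db, GM-CSF db/+ and GM-CSF db/db. Wnt5a, a ligand best known for signalling without beta-catenin, stood at 93.2, 225.7, 0 and 0. Wnt10b, which favours osteoblast over fat cell formation, stood at 18.1, 100.2, 0 and 2.2. Both were highest in M-CSF db/db and at or near 0 in both GM-CSF libraries.

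Wnt6 ran the other way, with 17.1, 5.2, 108.8 and 89.3 normalised reads, and both GM-CSF libraries were above both M-CSF libraries. Wnt2b, a ligand of the beta-catenin branch, was at 52.3, 68.8, 48.2 and 49.5. Wnt4, known for its roles in kidney and reproductive tract development, was at 27.6, 45.3, 14.6 and 31.2. The ranges of the cultures overlapped for Wnt4 and lay close together for Wnt2b.

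Of the Frizzleds, the Wnt receptors, 7 of 10 reached 20 normalised reads. Fzd7 was at 1443.9, 1185.9, 2694.0 and 2784.2, and its close relative Fzd1 at 216.9, 342.4, 530.5 and 500.3. Fzd4, also the receptor of the non-Wnt ligand norrin, was at 12.4, 27.0, 132.4 and 111.9. For these 3 receptors both GM-CSF libraries were above both M-CSF libraries.

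Fzd5 was at 709.6, 966.3, 538.4 and 551.9, with both GM-CSF libraries below both M-CSF libraries. Fzd2 was at 55.2, 101.1, 2.3 and 3.2, and Fzd3, known for axon guidance and cell polarity, at 55.2, 114.1, 0 and 2.2. Fzd8 was at 41.8, 123.7, 11.2 and 19.4. Fzd2, Fzd3 and Fzd8 were highest in M-CSF db/db and lowest in GM-CSF, so that the 7 Frizzleds split into a group of 3 higher in GM-CSF and a group of 4 higher in M-CSF.

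Levels of different genes were set side by side only per kilobase of exon, by lengths from GENCODE M21, which is not known to be the annotation the authors counted on. On that scale only the 7 Frizzleds at 20 or more in a library were ranked. In M-CSF db/+ they ran from Fzd7 (319 normalised reads per kilobase) through Fzd5 (103), Fzd1 (51.7), Fzd2 (15.1), Fzd8 (7.00) and Fzd3 (4.31) to Fzd4 (1.85). In GM-CSF db/+ the order of levels per kilobase was Fzd7 (594), Fzd1 (126), Fzd5 (77.9), Fzd4 (19.7), Fzd8 (1.87), Fzd2 (0.628) and Fzd3 (0). Fzd7 was thus the leading Frizzled in both cultures, and Fzd4 moved from last place among the 7 to the fourth. In M-CSF db/+ Fzd4 rested on 13 reads. Exons of Fzd5, Wnt5a and Sfrp2 overlap a gene on the other strand in that annotation, and with no statement on strand in the labels, their values are uncertain.

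The LRP co-receptors carry the Wnt signal to beta-catenin together with a Frizzled. Lrp6 was at 4966.0, 5091.3, 4184.6 and 4322.6 normalised reads, and Lrp5, which is also known for its effect on bone mass, at 681.0, 479.2, 83 and 89.3. Per kilobase, Lrp6 lay at 363 and Lrp5 at 69.9 in M-CSF db/+, and at 306 and 8.52 in GM-CSF db/+. The level of Lrp6 varied little between libraries, whereas Lrp5 was lower in both GM-CSF libraries than in both M-CSF libraries.

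Of the antagonists, Dkk3, a family member that differs from the others in not being a clear LRP blocker, was at 624.0, 1720.9, 3.4 and 4.3. Sfrp4 was at 23.8, 84.5, 0 and 0, and Sfrp1 at 16.2, 48.8, 0 and 0. All 3 were highest in M-CSF db/db. Sfrp2 was at 20.9, 41.8, 0 and 4.3. Sfrp5 was at 19, 7.0, 25.8 and 26.9, the only Sfrp gene whose GM-CSF values were above both M-CSF values.

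**Figure D1:**
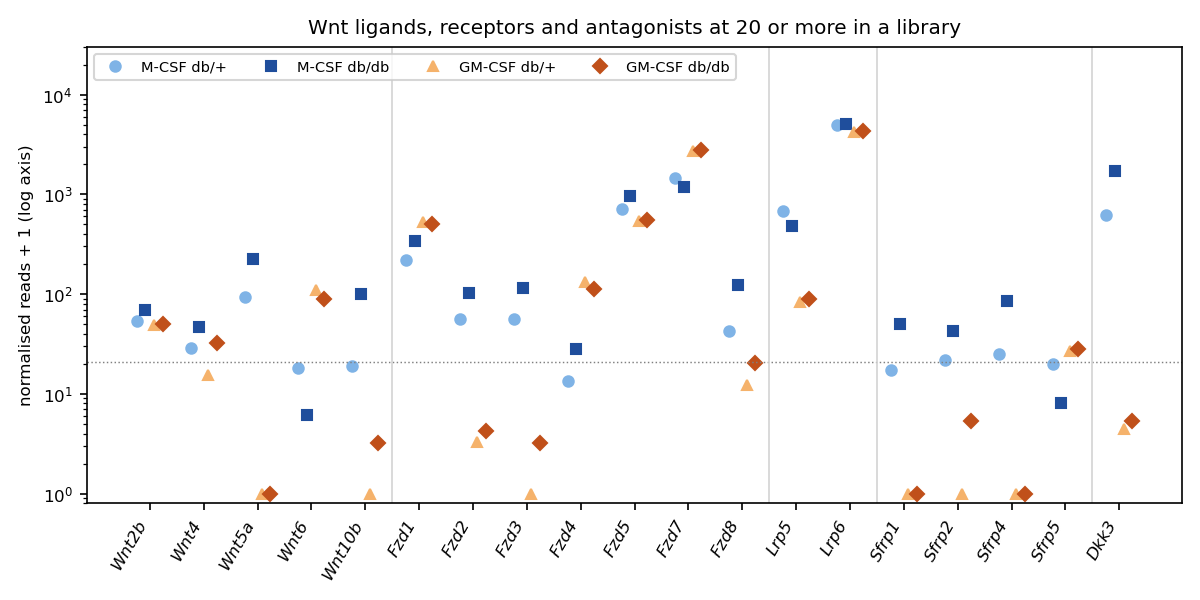
Normalised reads plus 1 (log axis) of the 19 genes that reached 20 in a library, with 1 symbol per library and the dotted line at the limit of 20. Dkk3, Wnt5a, Fzd2, Fzd3, Sfrp1 and Sfrp4 sit far lower in GM-CSF than in M-CSF, whereas Wnt6, Fzd4, Fzd1 and Fzd7 sit higher.

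The comparison of db/db with db/+ in M-CSF culture asked how the diabetic genotype relates to expression in the whole culture, stromal cells included. Among the 19 genes, 6 passed 2-fold upward in M-CSF db/db, against 5.05% of all 13642 genes at 20 or more. They were the ligands Wnt10b and Wnt5a, the receptor Fzd8 and the antagonists Sfrp4, Sfrp1 and Dkk3. At least 2-fold lower were 2, Wnt6 and Sfrp5, against 0.777% of all genes. The median log2 fold of the 19 was 0.82, with 15 above 0 and 4 below, beside 0.02 for all genes tested. Of all 39 members, 22 had a higher value in db/db and 17 a lower one, beside 9587 higher, 11274 lower and 1839 equal among all 22700 rows.

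Wnt10b had the largest fold, a log2 fold of 2.19 and a ratio of 5.54 (1 library each, 95% interval 2.69 to 11.7), resting on 115 reads in db/db and 19 in db/+. Sfrp4 had a log2 fold of 1.64 and a ratio of 3.55 (1.84 to 6.94), and Sfrp1 a log2 fold of 1.34 and a ratio of 3.01 (1.31 to 6.87). Wnt10b and Sfrp1 entered the 19 through M-CSF db/db alone, so their direction was fixed by the limit of 20. Dkk3 had the tightest estimate of the 6, a log2 fold of 1.46 and a ratio of 2.76 (2.43 to 3.14). Fzd8 had a log2 fold of 1.46 and a ratio of 2.96 (1.81 to 5.01), and Wnt5a a log2 fold of 1.23 and a ratio of 2.42 (1.74 to 3.45). None of these 6 intervals included 1, but for Wnt10b and Sfrp1 they are no separate evidence for the direction. The intervals cover counting error only. The mean squared difference of the M-CSF pair was 6.98 times counting at 200 to 1000 reads and 13.1 times at 1000 to 5000.

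Below the 2-fold limit, Fzd3 had a ratio of 2.07 (1.33 to 3.35; log2 fold 0.98), Fzd2 of 1.83 (1.15 to 2.97), Fzd1 of 1.58 (1.25 to 2.01) and Fzd5 of 1.36 (1.19 to 1.56). The intervals of Fzd4 (0.815 to 6.02), Sfrp2 (0.943 to 4.52), Wnt4 (0.810 to 3.22) and Wnt2b (0.788 to 2.20) included 1. Lower ratios were found for Fzd7, at 0.821 (0.740 to 0.913), and Lrp5, at 0.704 (0.599 to 0.826). Lrp6 was at 1.03 (0.972 to 1.08). The 2 most abundant receptor genes per kilobase, Lrp6 and Fzd7, thus moved least or in the other direction.

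Wnt6 (log2 fold -1.12) and Sfrp5 (log2 fold -1) were under 20 in both M-CSF libraries and entered the 19 through GM-CSF. Their ratios were 0.304 (0.0532 to 1.22) and 0.368 (0.0839 to 1.27), and both intervals included 1. The M-CSF db/+ library also held more low-level reads than M-CSF db/db across genes, as given with the genes under 20, and the part of this in the 2 lower values was not tested.

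The summed stromal markers were higher along with these genes, and their ratio of 2.79 in M-CSF lies beside ratios of 2.42 to 5.54 for the 6 genes. Of the 14 stromal markers at 20 or more, 13 passed 2-fold upward in M-CSF db/db, with a median log2 fold of 1.40. Osteoblast markers had a summed ratio of 2.78, with 3 of 4 at least 2-fold higher. None of the 10 macrophage markers was 2-fold higher or lower, and their median log2 fold was -0.08. Summed ratios were 3.07 for B and plasma cell markers (2 of 4 at least 2-fold higher) and 1.63 for erythroid markers (1 of 2). They were 1.61 for adipocyte, 1.18 for mast cell, 1.11 for endothelial, 1.04 for neutrophil and 0.503 for T and NK cell markers. The part of any of these markers in the differences of the 6 genes was not tested.

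In GM-CSF culture few genes differed between the genotypes. None of the 19 was 2-fold higher, against 0.586% of all genes, or 2-fold lower, against 0.476%. The median log2 fold was 0.05 beside 0.01 for all genes, with 13 genes above 0 and 3 below. The ratio was 1.03 for Fzd7 (0.955 to 1.12), 1.03 for Lrp6 (0.969 to 1.10) and 0.943 for Fzd1 (0.784 to 1.13). Counting error left room for larger differences at lower levels, for example 0.571 to 1.25 for Fzd4, 0.531 to 1.27 for Wnt6 and 0.789 to 5.96 for Wnt4 (ratio 2.14). Wnt5a, Sfrp1 and Sfrp4 were at 0 in both libraries and give no ratio. With 1 library per group, the difference between the cultures in the size of the genotype effect could not be tested.

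**Figure D2:**
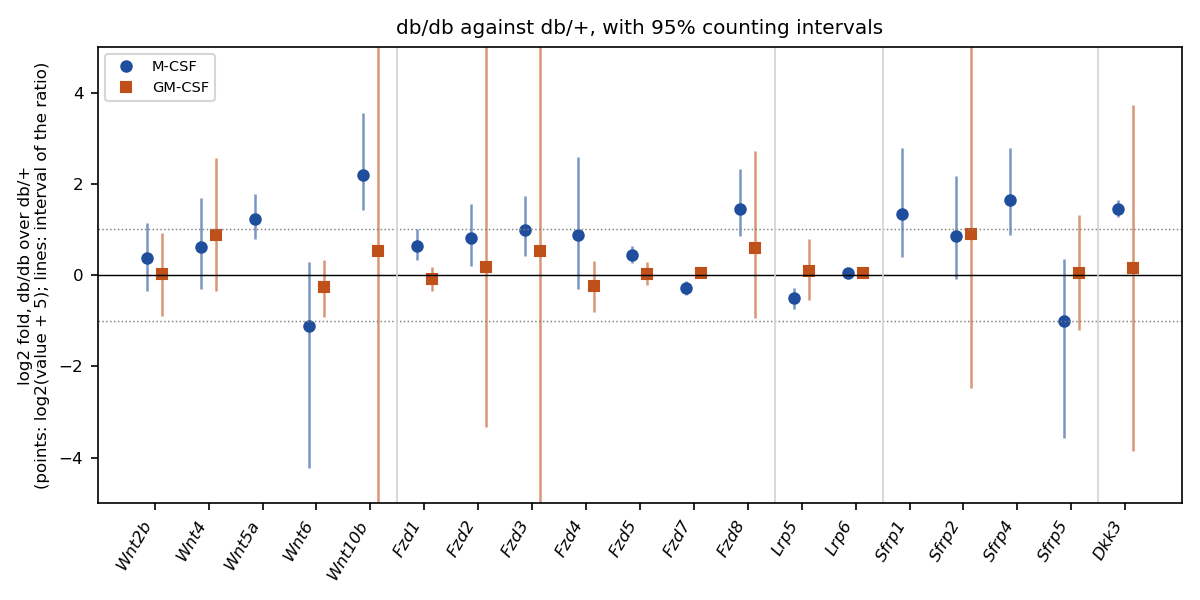
Log2 fold of db/db over db/+ (points, on log2(value + 5)) in M-CSF and GM-CSF for the 19 genes, with 95% counting intervals of the ratio (lines) and dotted lines at 2-fold. Lines that reach the frame go on beyond it, and genes at 0 in both GM-CSF libraries have no GM-CSF point; Wnt10b, Sfrp4, Dkk3, Fzd8, Sfrp1 and Wnt5a lie above the upper dotted line in M-CSF.

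An additive model in limma over all 4 libraries, with culture and genotype as terms, had 1 residual degree of freedom and borrowed its spread from all genes. That degree of freedom is the departure from additive effects, so a genotype difference in M-CSF alone counts partly as spread. The model cannot show that such a difference is absent. For genotype, 0 of the 19 passed at an adjusted p under 0.05, against 0.00733% (1 gene) of all genes, and 3 of the 19 had an unadjusted p under 0.05 (Fzd8, Dkk3 and Wnt10b). Among all genes 603 had such an unadjusted p. The quasi-likelihood test of edgeR on recovered reads called 1 of the 19, Dkk3 (log2 fold change 1.41, adjusted p = 0.00107), against 0.755% of all genes (103), and DESeq2 called 0, against 0.0147%. Dkk3 had only 3.4 and 4.3 normalised reads in GM-CSF, so that its call could rest on the M-CSF reads alone.

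The comparison of GM-CSF with M-CSF asked which Wnt components differ between the 2 kinds of culture. In the db/+ libraries 3 of the 19 were at least 2-fold higher in GM-CSF (Wnt6, Fzd4 and Fzd1), against 12.0% of all genes, and 10 were at least 2-fold lower, against 15.7%. In the db/db libraries 4 were higher (Wnt6, Fzd4, Fzd7 and Sfrp5), against 11.3%, and 10 were lower, against 15.8%. The same 10 genes were lower in both genotypes: Wnt5a, Wnt10b, Fzd2, Fzd3, Fzd8, Lrp5, Sfrp1, Sfrp2, Sfrp4 and Dkk3. Median log2 folds were -1.53 and -2.33, beside 0.03 and 0.01 for all genes tested, with 5 of the 19 above 0 and 14 below in each genotype. Of the 10 lower genes, Wnt10b and Sfrp1 reached 20 only in M-CSF db/db, and 9 of the 10 reached it only in M-CSF libraries, Lrp5 being the exception, so their direction followed from the limit. The same holds for Wnt6 and Sfrp5 among the higher genes, which reached 20 in GM-CSF libraries alone. In db/+, Wnt10b and Sfrp1 lost the 2-fold call where values of 0 were set to 3 read pairs (8 genes lower), and Fzd8, Sfrp1 and Wnt10b lost it with a pseudocount of 20 (7 lower).

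In the limma model 16 of the 19 passed for culture, against 57.1% of all genes, and because so many genes passed, this share says little about Wnt genes. Higher in GM-CSF were 4, against 29.8% of all genes, and lower were 12, against 27.3%. The largest difference was that of Dkk3, which fell by 6.88 on the log2 scale (SE 0.31, limma adjusted p = 9.78e-11). Its normalised reads were 184 times lower in GM-CSF in db/+ (38.2 to 1153) and 400 times lower in db/db (110 to 3308). Dkk3 reached the limit on normalised reads in M-CSF libraries alone, so this direction followed from that limit.

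Wnt5a fell by 4.91 (SE 0.45, limma adjusted p = 2.65e-07), and its values of 0 in GM-CSF, set to a floor of 3 read pairs per library, put it at least 13.8-fold lower in db/+, and in db/db at least 35-fold lower. By the same interval Sfrp4 was at least 2.58-fold and at least 10.4-fold lower, and Sfrp1 at least 1.67-fold and at least 5.75-fold lower. In db/+, Wnt10b was at least 1.90-fold lower, Sfrp2 at least 2.13-fold and Fzd3 at least 6.25-fold. In db/db, with 1 to 4 reads left in GM-CSF, the ratios were 45.5 (8.10 to 1887) for Wnt10b, 9.72 (2.41 to 84.9) for Sfrp2 and 51.9 (9.27 to 2143) for Fzd3. For all 6 genes the M-CSF value was the higher by more than counting error in both genotypes. All 6 reached the limit on normalised reads in M-CSF libraries alone, so this direction followed from that limit. The intervals and the p-value are therefore no separate evidence for the direction.

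Lrp5 fell by 2.66 (SE 0.19, limma adjusted p = 2.37e-08) and was 8.20 times lower in db/+ (5.84 to 11.8) and 5.37 times lower in db/db (3.82 to 7.52). Lrp6 fell by only 0.24 (SE 0.08, limma adjusted p = 0.0209), so the ratio of the co-receptors differed between cultures. Fzd2 fell by 3.37 (limma adjusted p = 1.23e-05), Fzd3 by 3.82 (4.49e-06), Fzd8 by 1.96 (4.62e-04) and Fzd5 by 0.60 (0.00104). Wnt10b fell by 3.04 (limma adjusted p = 2.52e-04), Sfrp4 by 3.34 (1.31e-04), Sfrp1 by 2.76 (9.96e-04) and Sfrp2 by 2.35 (0.00138). Apart from Lrp5, Lrp6 and Fzd5, these genes reached the limit on normalised reads in M-CSF libraries alone. Their direction followed from that limit, and their p-values are no separate evidence for it.

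Wnt6 was 2.79 higher on the log2 scale in GM-CSF (SE 0.38, limma adjusted p = 1.75e-05), with ratios of 6.36 in db/+ (3.12 to 14.9) and 17.2 in db/db (5.52 to 87.2). Since Wnt6 reached 20 in GM-CSF alone, this direction was fixed by the limit. Fzd4 was 2.43 higher (SE 0.35, limma adjusted p = 3.23e-05), with ratios of 10.7 (4.53 to 25.8) and 4.14 (2.26 to 7.53). Fzd7 was 1.06 higher (limma adjusted p = 3.35e-07) and Fzd1 0.91 higher (limma adjusted p = 4.45e-04). Sfrp5 (log2 fold change 0.89, limma adjusted p = 0.121), Wnt4 (-0.60, 0.201) and Wnt2b (-0.27, 0.476) did not pass.

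These adjusted p-values treat the GM-CSF libraries, which differed by little more than counting error, as separate samples. With both averaged into 1 sample and no genotype term, an alternative chosen after seeing the data, 12 of the 19 passed in limma, 3 higher, against 19.0% of all genes, and 9 lower, against 17.7%. Fzd1, Fzd5, Fzd8 and Lrp6 no longer passed (adjusted p = 0.0608, 0.0781, 0.0622 and 0.152). Without the GM-CSF db/+ library, also with no genotype term, 3 higher and 7 lower passed, against 19.2% and 17.7% of all genes. Scaling to total reads moved the median log2 difference of all genes between cultures from 0.02 to -0.31, with 2297 genes higher and 6373 lower in place of 4062 and 3725. The 4 higher and 12 lower members kept their calls in limma under that scaling, while Fzd1 lost its 2-fold call in db/+ and Fzd7 its call in db/db.

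The summed stromal markers were 32.6 times lower in GM-CSF in db/+ and 86.5 times lower in db/db, and the summed dendritic markers 31.0 and 30.7 times higher. That dendritic sum was mostly Itgax. The median log2 fold of the 8 dendritic genes was 1.59 in db/+ and 1.58 in db/db, with 7 above 0 and 1 below in each. Neutrophil markers (6 genes) summed 15.4 and 13.2 times lower in GM-CSF and erythroid markers (4 genes) 10.9 and 14.2 times lower. Adipocyte markers (4 genes) summed 20.2 and 12.2 times higher, with Cfd at 0 in both GM-CSF libraries, Plin1 at 0 in db/+ and Adipoq at 0 in db/db. That sum was nearly all Fabp4, at 422.3, 687.5, 8827.9 and 8626.8, the only one of the 4 to reach 20 in a library. The part of all these markers in the differences of the Wnt genes between cultures was not tested.

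**Figure D3:**
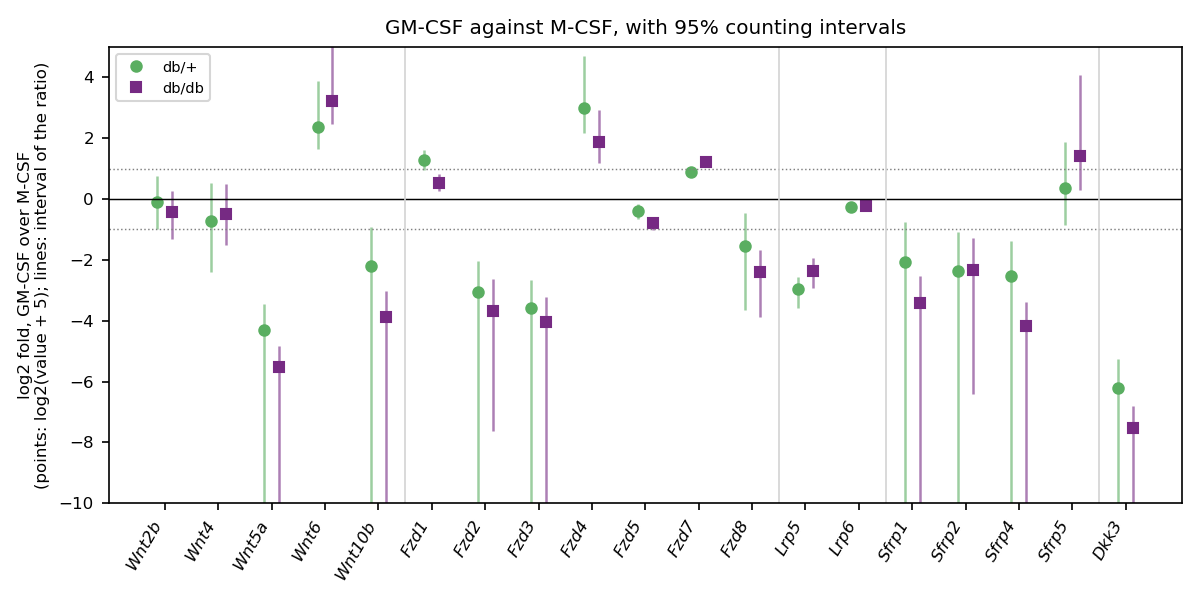
Log2 fold of GM-CSF over M-CSF (points, on log2(value + 5)) in db/+ and db/db for the 19 genes, with 95% counting intervals of the ratio (lines) and dotted lines at 2-fold. Lines that reach the frame go on beyond it; Wnt6 and Fzd4 lie above the upper dotted line in both genotypes, and 10 genes from Wnt5a to Dkk3 lie below the lower one.

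Start sites of 10 of the 19 genes were found in the RefSeq promoter table (GRCm38.p6; 25 of all 39 matched). The 250 bases before the start are shown for 2 genes lower in GM-CSF, Wnt10b and Sfrp2, and for 2 higher in it, Wnt6 and Fzd4, since these pairs moved in opposite directions between cultures. Capitals mark each CG pair, and the strand is that of the gene. Wnt10b lies at chr15:98778151-98778400 (minus strand), Sfrp2 at chr3:83766071-83766320 (plus), Wnt6 at chr1:74771642-74771891 (plus) and Fzd4 at chr7:89404116-89404365 (plus).
Wnt10b: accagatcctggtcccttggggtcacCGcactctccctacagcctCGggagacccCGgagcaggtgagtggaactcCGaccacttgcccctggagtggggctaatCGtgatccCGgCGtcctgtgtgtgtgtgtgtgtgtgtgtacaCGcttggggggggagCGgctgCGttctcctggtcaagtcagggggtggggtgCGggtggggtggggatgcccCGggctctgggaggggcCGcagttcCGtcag
Sfrp2: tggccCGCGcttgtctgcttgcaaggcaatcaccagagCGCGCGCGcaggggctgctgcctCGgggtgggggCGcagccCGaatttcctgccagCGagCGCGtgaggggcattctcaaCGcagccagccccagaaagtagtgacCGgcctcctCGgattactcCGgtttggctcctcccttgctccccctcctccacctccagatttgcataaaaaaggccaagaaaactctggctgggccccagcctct
Wnt6: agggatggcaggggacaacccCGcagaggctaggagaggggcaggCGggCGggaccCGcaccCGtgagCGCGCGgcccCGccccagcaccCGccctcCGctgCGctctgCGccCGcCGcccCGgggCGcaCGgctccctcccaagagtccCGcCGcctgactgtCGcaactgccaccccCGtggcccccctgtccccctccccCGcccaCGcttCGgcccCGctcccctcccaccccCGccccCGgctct
Fzd4: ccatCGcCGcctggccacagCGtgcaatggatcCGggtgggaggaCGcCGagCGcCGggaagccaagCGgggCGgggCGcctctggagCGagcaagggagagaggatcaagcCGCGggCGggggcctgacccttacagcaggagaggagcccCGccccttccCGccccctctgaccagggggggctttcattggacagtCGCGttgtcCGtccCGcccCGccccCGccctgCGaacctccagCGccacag
CG pairs numbered 14 in Wnt10b and 16 in Sfrp2, against 28 in Wnt6 and 25 in Fzd4, and GC content was 66.8%, 63.6%, 79.6% and 72.8%. Other genes went the other way. Fzd1, also higher in GM-CSF, held 12 CG pairs, the lowest count of the 10, at a GC content of 51.2%. Fzd5, lower in GM-CSF, held 38 in a window of 300 bases that runs 50 past the start. A relation of CG pairs to direction was not tested. Among all 10 promoters of the family, 7 held 15 or more CG pairs (70.0%), as did 53.4% of the promoters of 9548 genes at 20 or more reads. The median was 21 CG pairs against 15, and median GC content 69.8% against 59.6%.

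Of 5 short motifs searched in these 250 bases, Fzd1 alone among the 10 held any. Its window, chr5:4758217-4758466 (minus strand), is shown with the matches in capitals.
Fzd1: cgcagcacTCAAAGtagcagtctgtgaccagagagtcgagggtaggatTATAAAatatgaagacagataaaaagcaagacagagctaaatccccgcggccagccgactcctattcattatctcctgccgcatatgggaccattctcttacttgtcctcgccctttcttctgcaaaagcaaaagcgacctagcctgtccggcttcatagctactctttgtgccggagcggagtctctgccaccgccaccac
The first capitals are the TCF/LEF core CTTTGA read on the other strand, 242 bases before the start, and the second the TATA box letters TATAAA, 202 bases before it. CTTTGA on either strand was present in 13.8% of 32817 promoter windows of this length and TATAAA on the gene's strand in 7.60%. No match among the 10 was found, on either strand, for the STAT motif TTCNNNGAA (7.01% of all windows), the AP-1 motif TGANTCA (6.75%) or the PU.1 motif GAGGAAGT (2.44%). A match describes letters in a window and is not a binding site.

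The 20 members under 20 normalised reads were 14 Wnt ligands, the receptors Fzd6, Fzd9 and Fzd10 and the antagonists Dkk1, Dkk2 and Dkk4, and each had a read in at least 1 library. Reads were present for 19 of the 20 in M-CSF db/+ (95%), 15 in M-CSF db/db (75%), 6 in GM-CSF db/+ (30%) and 9 in GM-CSF db/db (45.0%). All 9058 genes under 20 followed the same order between the M-CSF libraries, with reads in 72.3%, 57.5%, 29.3% and 30.1%. The 1123 olfactory receptor genes had reads in 46.8%, 29.5%, 10.2% and 8.55%, with highest values of 114.1, 67.1, 49.4 and 67.8. M-CSF db/+ thus held reads for more genes than the other libraries in this set too.

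The highest value of the 20 was in M-CSF db/+ for 13, in M-CSF db/db for 6 and in GM-CSF for 1. Reads for 10 of them were found only in M-CSF, and for Wnt2, Wnt3, Wnt3a and Wnt8a only in M-CSF db/+, at 3.8, 3.8, 8.6 and 4.8. Wnt5b was at 3.8, 18.3, 0 and 0, Wnt9a at 11.4, 19.2, 0 and 4.3, and Wnt11 at 1.9, 13.9, 2.3 and 6.5. Fzd6 was at 18.1, 15.7, 11.2 and 10.8, and Dkk1, a strong LRP blocker, at 0, 7.0, 0 and 0. A count of 0 allows up to 5.71, 5.23, 6.73 and 6.45 normalised reads (3 read pairs) in the 4 libraries, and values at or under that floor cannot be told from 0. Of the 20 members, 14, 9, 2 and 3 had at least 3 read pairs in the 4 libraries.

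**Figure D4:**
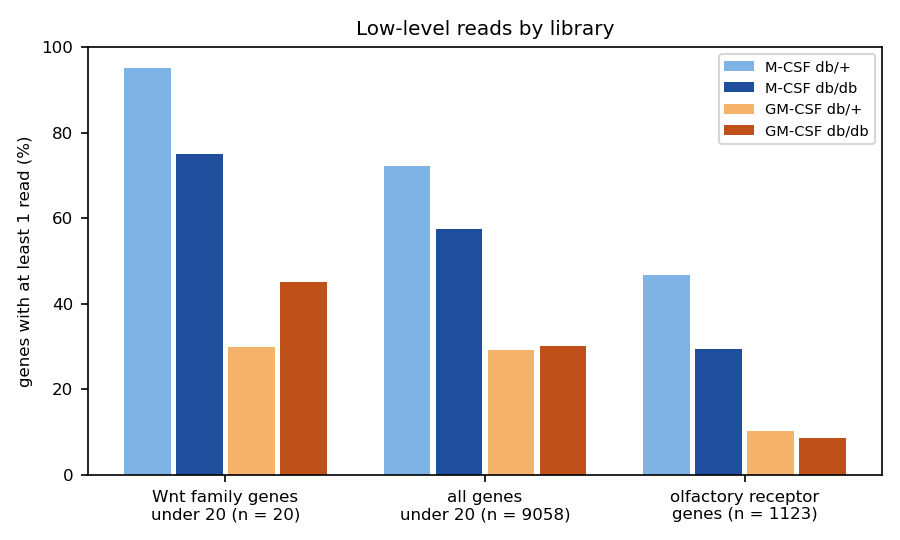
Share of genes with at least 1 read (percent) in each of the 4 libraries, for the 20 Wnt family genes under 20, all 9058 genes under 20 and 1123 olfactory receptor genes. In all 3 sets M-CSF db/+ has the highest bar and M-CSF db/db the next.

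Other genes of the pathway were counted from 7 lists, of which 91 genes reached 20. In the M-CSF genotype comparison 15 of the 91 passed 2-fold upward in db/db and 0 downward, with a median log2 fold of 0.15, against 5.05% and 0.777% of all genes. Secreted regulators beyond Wnt, Sfrp and Dkk had 3 of 5 higher (median 1.22). These were Cthrc1 (37.1, 130.7, 0 and 2.2), which steers Wnts to the polarity branch, Rspo2 (329.1, 942.8, 11.2 and 14.0), which strengthens Wnt signals, and Tpbg (79.9, 193.4, 10.1 and 4.3), a membrane inhibitor. Other receptors and co-receptors had 5 of 12 higher (median 0.87): Ptk7, Smo, Reck, Lgr4 and Ryk, with log2 folds of 1.66, 1.38, 1.33, 1.30 and 1.24. Ryk and Ptk7 act in Wnt signalling without beta-catenin, Lgr4 binds R-spondins, and Smo is a relative of the Frizzleds that carries Hedgehog signals.

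Genes inside the cell were mostly flat in the same comparison. Of the cytoplasmic genes 0 of 22 were higher (median -0.05), of the nuclear effectors 1 of 16 (Tcf7, 1.04; median -0.15), and of the polarity and calcium genes 2 of 21 (Plcb1, 1.13, and Prkca, 1.12; median 0.13). The secretion genes had 0 of 2, with Wls, the carrier of Wnts to the surface, at 3105.5, 3900.1, 3650.7 and 3765.3. Common target genes had 5 of 15 higher (median 0.88): Tnfrsf11b, Wisp1, Wisp2, Fst and Tcf7. Tnfrsf11b, the decoy receptor osteoprotegerin, was at 507.9, 1679.9, 4.5 and 2.2, and Wisp2 at 253.0, 650.0, 0 and 0. Axin2, a widely used readout of beta-catenin signalling, stayed under 20, at 13.3, 12.2, 0 and 0. The stromal and osteoblast markers given above also moved with these lists, and their part in them was not tested.

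**Figure D5:**
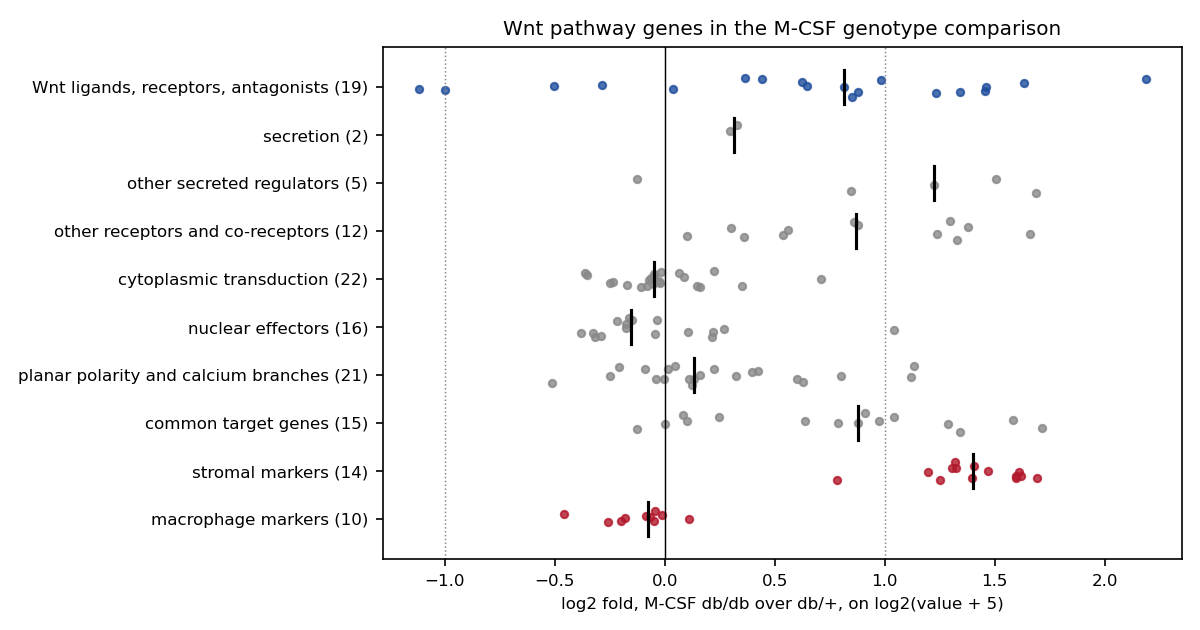
Log2 fold of M-CSF db/db over db/+ (on log2(value + 5)) for single genes (points) of the 19 Wnt ligands, receptors and antagonists, of 7 pathway lists and of stromal and macrophage markers, with each median as a bar and dotted lines at 2-fold. Medians are 0.82 for the 19 genes, -0.05 for cytoplasmic genes, 1.40 for stromal and -0.08 for macrophage markers.

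In GM-CSF the genotype comparison had 2 of the 91 pathway genes higher in db/db, Dact3 (log2 fold 1.77) and Reck (1.01), and 0 lower, against 0.586% and 0.476% of all genes. In db/+, 9 were higher in GM-CSF and 32 lower, against 12.0% and 15.7% of all genes. In db/db, 7 were higher and 31 lower, against 11.3% and 15.8%. The 7 higher in both genotypes were Celsr3, Ctnnb1, Dact2, Jun, Lrp4, Prickle2 and Tcf7l2. Ctnnb1, which encodes beta-catenin, was at 1409.6, 1645.1, 6207.9 and 5642.6, and Tcf7l2, its nuclear partner, at 637.3, 510.6, 1542.2 and 1649.2. Prickle2, a cell polarity gene, was at 35.2, 47.9, 1832.7 and 1775.1.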

How the data were processed

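Total RNA (miRNeasy) was depleted of ribosomal RNA and sequenced as read pairs on a HiSeq2000, per the labels' protocols, in 4 libraries of 1 per group. The submitters' processing notes name TopHat 1.2.0, edgeR, mm8 and mm9, with no role for the builds. How reads were assigned to genes and strands is not given in the sources at hand. The deposited signal values are gene counts the authors divided by a TMM size factor and wrote to 1 decimal, per the file names and values. Within a tolerance of 0.1 read, over 99.9% of values were whole multiples of 1 step per library (0.951, 0.871, 1.12 and 1.08), so reads were recovered by dividing. Even counts were in slight excess, so intervals use read pairs. Values were filtered at 20 in any library (13642 genes of 22700; 38 symbols were repeated, none of a Wnt family gene) and taken as log2(value + 5).

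The test was limma 3.58.1 (R 4.3.3) on genotype and culture, with trend, Benjamini-Hochberg adjustment over all 13642 genes and a threshold of 0.05; edgeR 4.0.16 and DESeq2 1.42.0 on recovered reads, other pseudocounts, limits and scalings were alternatives. The scripts were tested on simulated data. Every gene of the family at 20 or more was named with all its values. Per pathway list, up to 8 genes were to be named by the size of the M-CSF genotype fold among those at 2-fold, then by level. Pathway genes named for GM-CSF, Wls, Axin2 and members under 20 were chosen after their values were seen. Gene family, lists and markers were chosen with earlier results of these data known. No label says that libraries came from separate animals, so p-values do not measure the spread between animals. In limma they measure the departure of these libraries from additive effects of culture and genotype, moderated over all genes.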

Additional observations from a re-analysis of the deposited data

Results flagged for a closer look

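Sfrp5 was lower in db/db in M-CSF and nearly unchanged in GM-CSF. Going from db/+ to db/db, its log2 fold was -1 in M-CSF, from 19 to 7.0 normalised reads, and 0.05 in GM-CSF, from 25.8 to 26.9. The difference between the cultures was not tested. The intervals of the M-CSF ratio (0.0839 to 1.27) and of the GM-CSF ratio (0.437 to 2.49) both included 1.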

How the results depend on the processing

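No called fold of a family gene changed sign under any alternative run, but the median log2 fold of all genes between cultures did, from 0.03 in db/+ and 0.01 in db/db to -0.29 and -0.34 with scaling to total reads. With a level minimum of 200, Wnt family genes 2-fold higher in M-CSF db/db went from 6 to 2 and lower from 2 to 0; between cultures 1 was higher and 3 lower in db/+, and 1 and 3 in db/db; pathway genes numbered 9 higher in M-CSF db/db, 0 higher in GM-CSF db/db, and 13 and 12 lower between cultures in db/+ and db/db. At 1.5-fold, 12 family genes were higher in M-CSF db/db and 3 in GM-CSF db/db (9.41% and 2.65% of all genes), and pathway genes numbered 27 and 4 higher, and 3 lower in GM-CSF db/db. With no level minimum, 5 of 39 family genes were lower in M-CSF db/db (2.44% of all genes) and 17 in GM-CSF db/+ (14.6%). In that setting 1 pathway gene was lower in M-CSF db/db. A pseudocount of 1 gave 4 family genes higher in GM-CSF db/db (2.07% of all genes), with 5 pathway genes higher and 4 lower. A pseudocount of 20 gave 0 family genes lower in M-CSF db/db, 0 pathway genes higher in GM-CSF db/db and 21 lower between cultures in db/+. Scaling to total reads gave 1 pathway gene higher in GM-CSF db/db and 4 higher between cultures in db/+. In all these the cause was not tested.

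In the limma culture test, 0 family genes were higher and 0 lower with no level minimum, where 0 of 22700 genes were called, 8129 having an unadjusted p under 0.05. For genotype, edgeR called 1 family gene higher. DESeq2 gave 4 higher and 10 lower of the 19 for culture, against 2714 and 2661 of all 13642 genes. Wnt5a and Sfrp4 did not pass in it (DESeq2 adjusted p = 0.0570 and 0.129). Leaving out each library in turn, with no genotype term and chosen after seeing the data, gave 3 to 5 higher and 7 to 12 lower; without GM-CSF db/+ 7 were lower. No paired analysis was possible because each group held 1 library and so no replicate numbers could pair samples; the limma model itself compared cultures within genotype. Depth limits the low genes: 3 read pairs are worth 5.23 to 6.73 normalised reads.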

Other observations

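Some Wnt genes lie next to each other in the genome, and 4 such pairs are neighbours in RefSeq order: Wnt10b with Wnt1, Wnt6 with Wnt10a, Wnt3a with Wnt9a and Wnt9b with Wnt3. Wnt10b was at 18.1, 100.2, 0 and 2.2 normalised reads in M-CSF db/+, M-CSF db/db, GM-CSF db/+ and GM-CSF db/db, while its neighbour Wnt1 was at 7.6, 1.7, 0 and 0. Wnt6 was at 17.1, 5.2, 108.8 and 89.3, and its neighbour Wnt10a at 5.7, 7.0, 0 and 2.2. In both pairs 1 gene passed 100 normalised reads in a library in which the other stayed under 10.

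Summed over all members of a role, the Frizzleds stood at 2561.7, 2881.4, 3920 and 3986.1 normalised reads, the Wnt ligands at 305.4, 521, 185.2 and 190.7, the Sfrp genes at 79.9, 182.1, 25.8 and 31.2, the Dkk genes at 639.3, 1737.5, 10.1 and 16.1, and the LRP co-receptors at 5647, 5570.5, 4267.6 and 4411.9. The Frizzled sum alone was higher in GM-CSF, where Fzd7 was 2694.0 and 2784.2 of it and 4 of the 7 Frizzleds at 20 or more were lower.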
